A study of Mus musculus with 4 samples.

Results

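Translation initiation factor genes are the genes whose symbols begin with Eif and a digit. In the 4 gene tables of this series, 55 of 50600 genes met that rule, after 7 pseudogene symbols and 1 gene on chromosome Y, Eif2s3y, had been left out. The libraries were made from primary T-helper 2 cells of C57BL/6NJ mice, the CD4 lineage that makes interleukin-4, interleukin-5 and interleukin-13. All 4 libraries, biological replicates 1 to 4, formed 1 group with no control, no second cell type and no second treatment. The labels did not give sex or age, and file header paths named a time point of 24 hours. One donor record stood against all 4 libraries, and nothing said whether the replicates came from separate mice, so the p-values cover the spread among these 4 libraries only, and part of it may be technical.

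Initiation factors bring a ribosome to the start codon of an mRNA. The factor eIF2 carries the initiator tRNA in its GTP form, eIF2B recharges it, and 4 kinases (Eif2ak1 to Eif2ak4) block that step by phosphorylating eIF2 under stress. The eIF4 factors bind the mRNA cap and unwind the leader, eIF3 holds the mRNA on the small subunit, eIF1 and eIF1A keep it scanning, and eIF5 and eIF5B release eIF2 and join the large subunit. T cells are known to raise their rate of protein synthesis when they are activated.

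Total counts per library were between 1804217 and 2711948. Compared over all genes, chi-square divided by its degrees of freedom was 2.23 for replicates 1 and 2 and between 30.9 and 69.5 for the other pairs, highest for replicates 1 and 3. Calls for the initiation factor genes are given with and without replicate 4, where many of them were low. Genes with exon bases that are also exon of an opposite gene held between 92.2% and 95.9% of the counts of a library. The counting kept 1 strand, and the labels did not say which strand the library kit keeps. As a measure of strand, mt-Nd6, which lies on the other strand from the other 12 mitochondrial coding genes, had between 35801 and 49430 counts, and those 12 genes together had between 4207 and 7040. A value below is thus a number of fragments on the counted strand, and no expression of the named gene is inferred from it. Should the kit keep the other strand, a count listed for a gene would come from RNA of the strand opposite to it, for the pairs below as for all genes. This holds for the marker genes too. With the strand not known, the marker counts do not check the cell label, and they are given as values only. Of the markers, 6 of 7 T cell genes and 3 of 6 Th2 genes were above 1 TPM (the count scaled by exon length and by library). Of all 17203 genes with a count, 32.1% were, and of those sharing no exon base with an opposite gene, 18.7% were. Il4 had 24, 21, 25 and 26 counts in replicates 1 to 4, whereas Il5 and Il13 had 1 count each in all and Il1rl1 had 0. Of the markers of other cells, Cd8a, Ms4a1, Lyz2 and Adgre1 had 0 counts in every library, and Cd8b1 had 4, 3, 3 and 3. Cd79a, a B cell gene, was at 5.92 ± 1.52 TPM (SD, n = 4), and Csf1r, a macrophage gene with 871 exon bases in common with an opposite gene, was at 148 ± 21.7 TPM.

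Of the 55 initiation factor genes, 42 had no exon base in common with an opposite gene, and 13 had 50 or more in common with 14 such genes. The exons printed here belong to Eif3d and Eif2ak3, whose gene counts differed most from those of the gene on the other strand, and are given from their own gene's strand, 5′ to 3′, in mm10 coordinates, with capitals for the bases that are also exon on the other strand. Eif3d lies on the minus strand of chromosome 15 at chr15:77958998-77970824, and its exons 5, 9 and 12 of 15 are coding. Exons 5 and 9 lie whole inside the other-strand gene Gm17638, and exon 12 holds the end of the shared part. Eif2ak3 lies on the plus strand of chromosome 6 at chr6:70844515-70905245, and its coding exons 7 and 8 of 17 lie whole inside Gm43292.
Eif3d exon 5, chr15:77966682-77966767, minus strand: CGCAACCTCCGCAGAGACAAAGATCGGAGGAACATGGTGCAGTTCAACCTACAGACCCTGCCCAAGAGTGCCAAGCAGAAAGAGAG
Eif3d exon 9, chr15:77963178-77963325, minus strand: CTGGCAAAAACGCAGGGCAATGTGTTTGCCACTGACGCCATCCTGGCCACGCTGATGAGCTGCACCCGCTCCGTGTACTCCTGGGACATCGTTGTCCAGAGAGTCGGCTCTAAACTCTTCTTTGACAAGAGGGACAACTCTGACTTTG
Eif3d exon 12, chr15:77961614-77961743, minus strand: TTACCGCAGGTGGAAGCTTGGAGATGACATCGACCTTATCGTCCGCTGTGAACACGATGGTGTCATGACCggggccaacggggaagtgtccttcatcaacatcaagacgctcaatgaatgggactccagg
Eif2ak3 exon 7, chr6:70883595-70883735, plus strand: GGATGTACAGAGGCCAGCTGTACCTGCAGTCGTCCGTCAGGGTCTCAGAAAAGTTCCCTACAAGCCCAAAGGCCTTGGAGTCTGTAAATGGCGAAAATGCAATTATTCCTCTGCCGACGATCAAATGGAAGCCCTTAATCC
Eif2ak3 exon 8, chr6:70884770-70884892, plus strand: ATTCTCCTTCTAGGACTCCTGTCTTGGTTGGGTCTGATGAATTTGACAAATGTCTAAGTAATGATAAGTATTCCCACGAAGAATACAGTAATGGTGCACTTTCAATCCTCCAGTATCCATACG
In all, 625 bases of Eif3d and 485 bases of Eif2ak3 are shared in this way, and every one of them is coding sequence of the initiation factor.

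**Figure D1:**
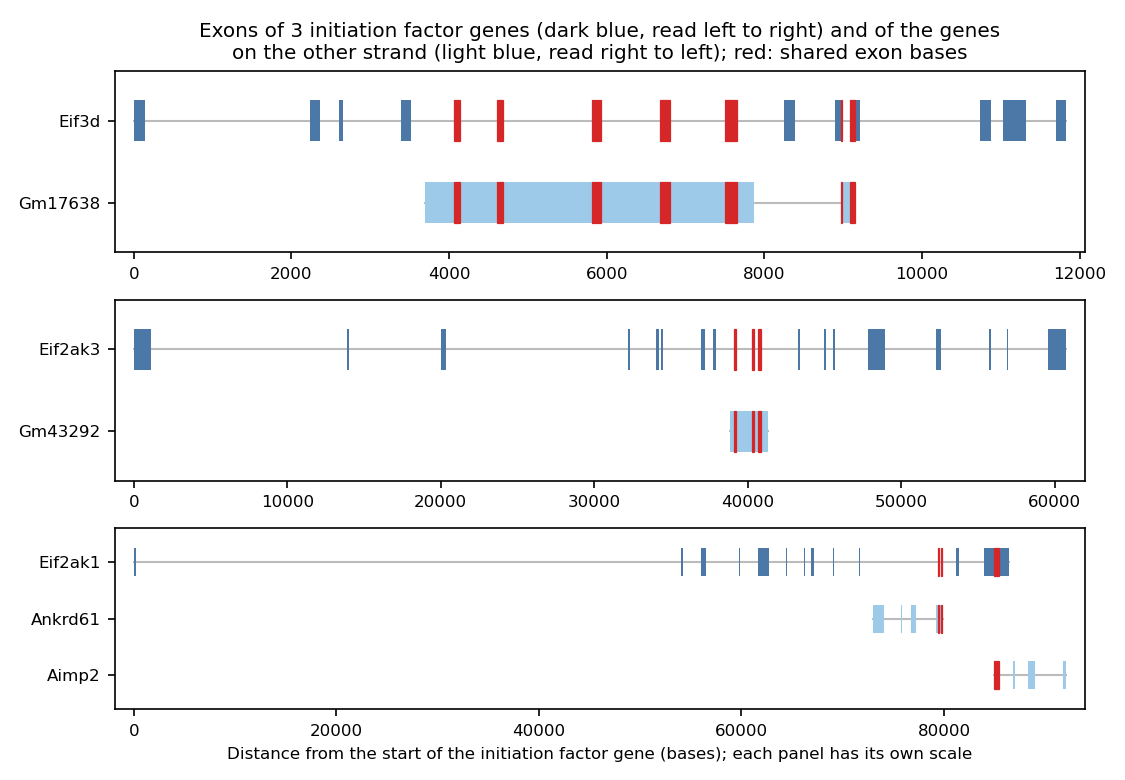
Exons of Eif3d, Eif2ak3 and Eif2ak1 by distance in bases from the start of each gene, above the exons of the genes on the other strand, with shared exon bases in red. Gm17638 and Gm43292 lie inside the span of the initiation factor gene and run across several of its exons and introns, while Aimp2 shares only the end part of Eif2ak1.

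Levels were tested against 1 TPM, about 4.56 to 6.14 counts at the median exon length of these genes, 3702 bases. With limma on log2(TPM + 0.1) and Benjamini-Hochberg adjustment over all genes with a count, 35 of the 52 initiation factor genes with a count were above 1 TPM, 2 were below and 15 passed in neither direction. Over all 17203 genes tested, 32.1% were above and 26.6% were below. Without replicate 4, 42 of these genes were above and 0 below, and so were 38.9% and 17.1% of 16573 genes in all. The median over the 55 genes was 5.48 TPM, against 1.14 TPM over all genes with a count. Among the 42 that share no exon base, the median was 5.06 TPM and 24 were above 1 TPM, whereas 18.7% of the 11233 such genes with a count were, at a median of 0.731 TPM. Among the 13 that share exon bases, the median was 20.3 TPM and 11 were above, whereas 58.2% of the 5513 genes with 50 or more shared bases were, at a median of 5.07 TPM. The 5 highest by TPM, Eif2ak1, Eif2b4, Eif5b, Eif2d and Eif4a2, all share exon bases, and those 5 held between 61.5% and 79.8% of all initiation factor counts of a library. A count of 0 in all 4 libraries was found for 3 genes, which allows up to 1.66 CPM (the count scaled by the library total) in the shallowest one. They were Eif4e1b, a cap-binding protein known from oocytes, Eif4ebp3, and Eif2c5, which is annotated as a long noncoding RNA and bears an old name of the Argonaute genes.

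**Figure D2:**
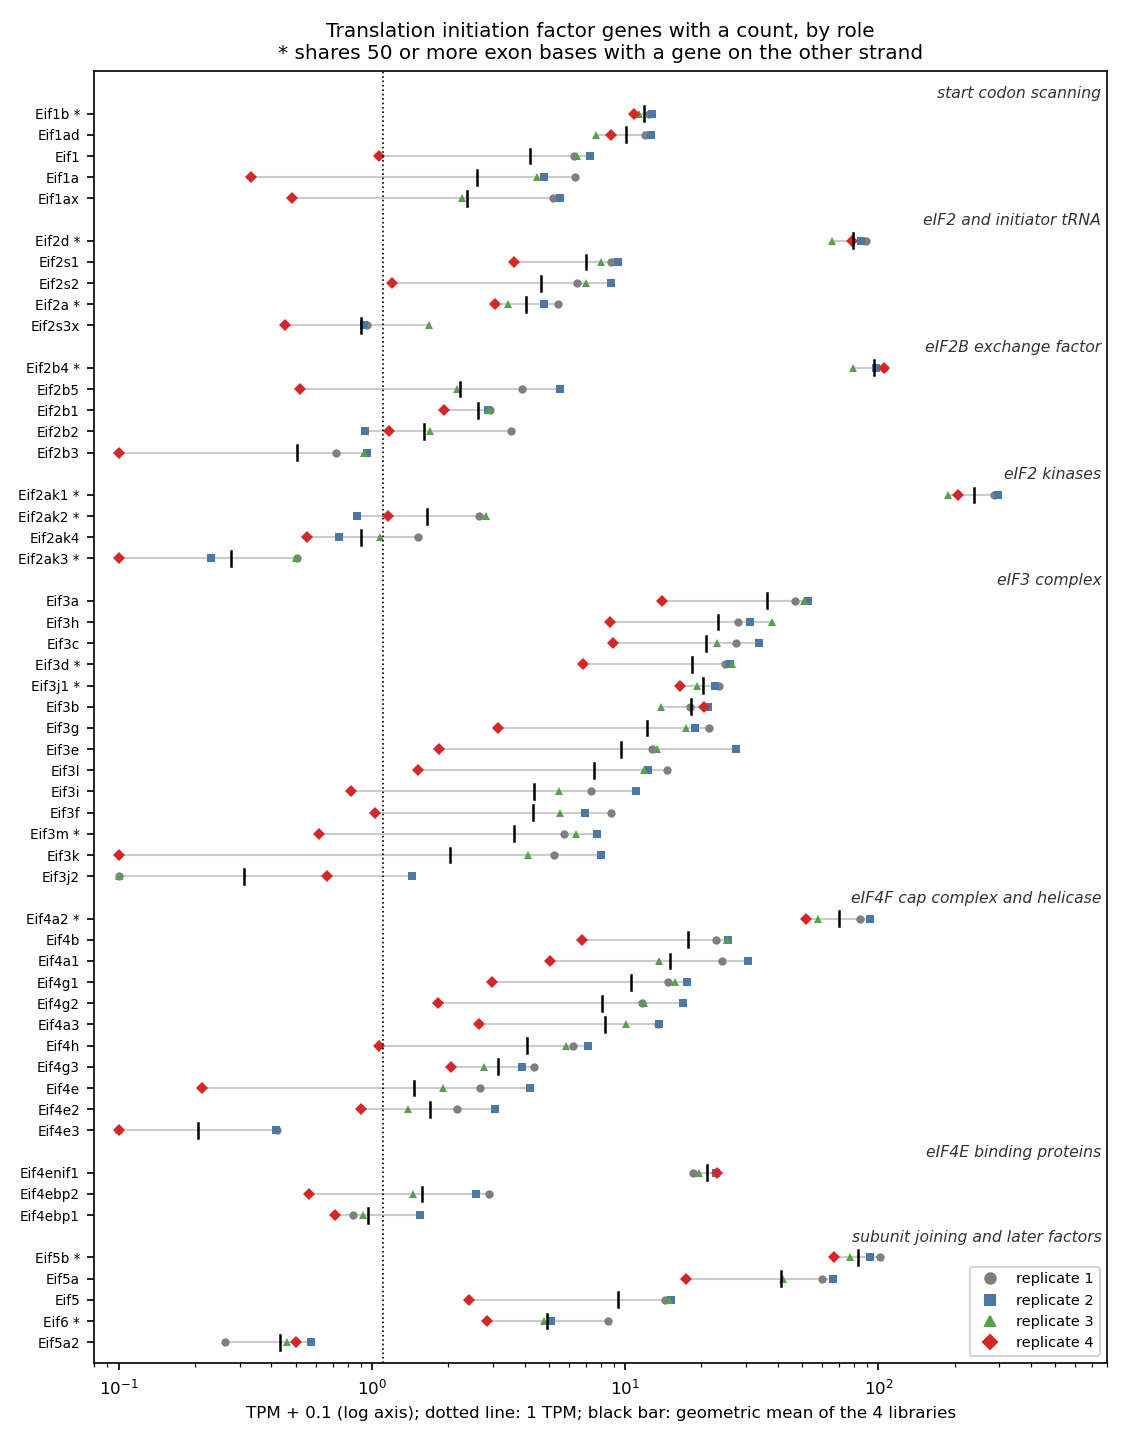
TPM + 0.1 on a log axis for the 52 initiation factor genes with a count, 1 point per library, ordered by role and by mean TPM, with the geometric mean as a black bar and 1 TPM as a dotted line. Genes with a star share exon bases with the other strand. Eif2ak1, Eif2b4, Eif5b, Eif2d and Eif4a2 stand highest, and replicate 4 is the lowest point for most genes without a star.

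Of the 5 genes listed under start codon scanning, 3 were above 1 TPM, with levels between 3.27 and 11.7 TPM. Eif1b, a close relative of the start codon factor Eif1, had 17, 18, 21 and 18 counts, or 11.7 ± 0.891 TPM (SD, n = 4), with no library apart from the others. Eif1ad, listed here only by its name, for a domain like that of eIF1A, had 36, 39, 31 and 32 counts, or 10.2 ± 2.40 TPM. Eif1 itself, which guards the choice of start codon, had 16, 19, 22 and 3 counts, or 5.16 ± 2.84 TPM, and replicate 4 was low. Eif1a and Eif1ax, both coding for eIF1A, were at 3.88 and 3.27 TPM and did not pass the test, with adjusted p of 0.16 and 0.14 (limma). Replicate 4 had 1 and 3 of their counts, and without it both were above 1 TPM (adjusted p = 2.6e-05 and 0.00064).

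For eIF2 and the other carriers of initiator tRNA, 4 of 5 genes were above 1 TPM. Eif2d, which can place initiator tRNA without GTP and also takes part in recycling, had 808, 794, 803 and 861 counts, or 79.6 ± 10.3 TPM. The alpha subunit gene Eif2s1, whose protein is the target of the eIF2 kinases, had 53, 58, 65 and 26 counts, or 7.36 ± 2.61 TPM. The beta subunit gene Eif2s2 had 53, 74, 77 and 11 counts, or 5.75 ± 3.26 TPM. Both subunit genes had their lowest count in replicate 4, while Eif2d had its highest there. By CPM, however, Eif2d was highest in replicate 1, at 448, and stood at 397 in replicate 4. Eif2a, a carrier separate from eIF2, had 40, 36, 34 and 27 counts, or 4.07 ± 1.1 TPM. The gamma subunit gene on the X chromosome, Eif2s3x, was at 0.904 ± 0.507 TPM and was not told apart from 1 TPM.

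The exchange factor eIF2B has 5 subunits, and their genes stood far apart. Eif2b4, the delta subunit, had 336, 319, 342 and 406 counts, or 96.6 ± 12.1 TPM, and replicate 4 was the highest library. Eif2b5, the catalytic epsilon subunit, had 15, 22, 11 and 2 counts, or 2.93 ± 2.17 TPM, and passed without replicate 4 (adjusted p = 0.0012, limma). Eif2b1 had 9, 9, 12 and 7 counts, or 2.56 ± 0.489 TPM, and was the other subunit above 1 TPM (adjusted p = 0.01, limma), a call that leaving out replicate 1 or replicate 3 ended (adjusted p = 0.052 and 0.059). Eif2b2 and Eif2b3 were at 1.74 and 0.576 TPM. In every library the Eif2b4 count was above the counts of all other subunits, and Eif2b4 is the one of the 5 that shares exon bases with the other strand, 204 bases around its start.

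Of the 4 eIF2 kinases, 1 was above and 1 below 1 TPM, beside 32.1% and 26.6% of all genes with a count. Eif2ak1, the kinase known to respond to a lack of heme, had the highest level of all 55 genes, with 1994, 2120, 1768 and 1737 counts, or 244 ± 55.0 TPM, rank 629 of all genes by mean TPM. Eif2ak2, the kinase switched on by double-stranded RNA, had 16, 5, 23 and 8 counts, or 1.77 ± 0.997 TPM. Eif2ak4, the sensor of uncharged tRNA, had 13, 6, 12 and 5 counts, or 0.868 ± 0.423 TPM. Eif2ak3, the kinase of the endoplasmic reticulum, had 3, 1, 4 and 0 counts, or 0.234 ± 0.201 TPM, and was below 1 TPM (adjusted p = 0.033, limma), a call lost without replicate 2, 3 or 4 (adjusted p = 0.11, 0.055 and 0.1). In no library did the other 3 kinases reach the lowest count of Eif2ak1. Sharing exon bases with the other strand did not go with a high level here. Eif2ak1 does so, but so do Eif2ak2, with 174 bases, and Eif2ak3, with 485.

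The eIF3 complex had the largest number of genes above 1 TPM, 12 of 14, with a median of 14.4 TPM. Eif3a, its largest scaffold subunit, had 297, 342, 436 and 107 counts, or 40.9 ± 18.2 TPM. Eif3h had 43, 49, 79 and 16 counts, or 26.4 ± 12.6 TPM. Eif3c, the second scaffold subunit, had 118, 149, 134 and 46 counts, or 23.2 ± 10.5 TPM. Replicate 4 was the lowest library for all 3 of these genes. Eif3b, which binds the small subunit through the scaffold, had 74, 89, 76 and 101 counts, or 18.3 ± 3.32 TPM. Replicate 4 was its highest count, but by CPM replicate 2 was higher, at 48.2 against 46.5. Eif3d, a subunit known to bind the cap of some mRNAs, was at 20.8 ± 9.44 TPM, and Eif3j1 at 20.3 ± 3.17 TPM. The subunits Eif3g, Eif3e, Eif3l, Eif3i, Eif3f and Eif3m lay between 5.02 and 15.1 TPM. Eif3i and Eif3m were the closest to the threshold: without replicate 1, 2 or 3 in turn their adjusted p lay between 0.072 and 0.16 (limma). Eif3k had 17, 27, 18 and 0 counts and passed without replicate 4. Eif3j2, a near copy of Eif3j1, had 0, 4, 0 and 2 counts. The counting had no option for multi-mapping fragments, so those that fit both copies equally would be counted for neither.

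Of the 12 genes of the cap complex and its helicase, 8 were above 1 TPM, 1 was below and 1 had 0 counts. Eif4a2, a form of the leader-unwinding helicase eIF4A, had 554, 625, 512 and 409 counts, or 71.6 ± 20.04 TPM. Eif4b, which stimulates that helicase, had 108, 123, 161 and 38 counts, or 19.97 ± 8.97 TPM. Eif4a1, the other form of the helicase, had 128, 167, 97 and 32 counts, or 18.2 ± 11.3 TPM. Replicate 4 was lowest for all 3, but by far less for Eif4a2, one of the 13 with shared exon bases. The scaffold genes Eif4g1, Eif4g2 and Eif4g3 were at 12.7, 10.5 and 3.17 TPM. Eif4a3, a helicase of the exon junction complex, was at 9.83 TPM, and Eif4h, a relative of Eif4b, at 4.97 TPM. The cap-binding protein gene Eif4e had 19, 31, 18 and 1 counts, or 2.14 ± 1.65 TPM, and did not pass (adjusted p = 0.63, limma), while without replicate 4 it did (adjusted p = 0.0051). Its relatives Eif4e2 and Eif4e3 were at 1.78 and 0.160 TPM, and Eif4e2 passed without replicate 4 (adjusted p = 0.039). Eif4e3, with 2 counts in all, was the second gene below 1 TPM (adjusted p = 0.01), a call lost without replicate 3 or 4 (adjusted p = 0.093 and 0.056).

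Among the proteins that hold eIF4E back from the cap complex, 1 of 4 genes was above 1 TPM, beside 32.1% of all genes with a count. Eif4enif1, which carries eIF4E into the nucleus and into granules of stored mRNA, had 145, 183, 206 and 218 counts, or 20.9 ± 2.30 TPM. Replicate 1 was its lowest count, but by CPM replicate 3 was lower, at 76.0 against 80.4. Eif4ebp2 had 20, 18, 13 and 4 counts, or 1.77 ± 1.07 TPM. Eif4ebp1, a target of the kinase mTOR, had 2, 4, 3 and 2 counts, or 0.905 ± 0.370 TPM, and Eif4ebp3 had none. Neither Eif4ebp1 nor Eif4ebp2 was told apart from 1 TPM, and without replicate 4 Eif4ebp2 was above it (adjusted p = 0.024, limma).

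For subunit joining and the later factors, 4 of 5 genes were above 1 TPM. Eif5b, the GTPase that joins the subunits, had 1213, 1134, 1250 and 964 counts, or 84.2 ± 15.4 TPM. Eif5a, the hypusine-bearing factor that helps elongation past stalling sites, had 175, 198, 165 and 61 counts, or 46.2 ± 21.9 TPM, the highest level among genes sharing no exon base. Eif5, which makes eIF2 hydrolyse its GTP, had 71, 77, 100 and 14 counts, or 11.6 ± 6.20 TPM. Eif6, which keeps the large subunit from joining early, had 28, 17, 21 and 11 counts, or 5.21 ± 2.36 TPM. The relative of Eif5a named Eif5a2 was at 0.349 ± 0.133 TPM and did not pass (adjusted p = 0.072, limma).

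The genes on the other strand differed from their initiation factor genes in both directions. Of the 14 pairs, 5 had the higher level in the other-strand gene by the mean of log2(TPM + 0.1) and in all 4 libraries, while 55.3% of the 4338 pairs of a protein-coding gene and an other-strand gene in the whole annotation did. Over 4 libraries a two-sided exact permutation of signs cannot go below p = 0.13, and the smallest p adjusted over the 14 pairs was 0.159. None of the differences within a pair could therefore pass, and they are given by size. Leaving out replicate 4 turned the sign of none of the 14. The tables hold 1 count per gene, so where along a gene its fragments lay is not known.

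Gm17638, annotated as antisense to Eif3d, had 14123, 14200, 14311 and 12454 counts, while Eif3d had 58, 62, 83 and 19. Gm17638 ranked 9 among all genes by mean count and alone held 0.663% ± 0.131 of the counts of a library (SD, n = 4). Its level was 2287 ± 382 TPM against 20.8 ± 9.44 TPM for Eif3d, a difference of 6.94 ± 0.83 on the log2 scale, and the values of the pair did not overlap. The counts of Gm17638 were between 172 and 655 times those of Eif3d within a library. Of its 4343 exon bases, 625 lie opposite exons of Eif3d, among them the capitals printed above, and the other 3718 lie opposite introns of Eif3d. Gm43292, annotated in a class of transcripts that await experimental evidence, had 194, 232, 242 and 207 counts opposite Eif2ak3. Its level was 63.9 ± 8.06 TPM, a difference of 7.85 ± 1.09 from Eif2ak3, whose 3, 1, 4 and 0 counts make the size uncertain. Gm43292 too lies inside its partner, with 485 bases opposite exons and 1964 opposite introns.

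A further 3 genes on the other strand were higher than their partners in every library. Ccdc73 had 274, 272, 224 and 223 counts, or 41.5 ± 10.3 TPM, and shares 82 bases with the end of Eif3m, which had 18, 25, 27 and 2. Their difference was 3.48 ± 1.59, and 4269 of the exon bases of Ccdc73 lie outside Eif3m. Gm26637, a long noncoding RNA, had 67, 58, 75 and 64 counts opposite the start of Eif2ak2, with 174 shared bases and a difference of 3.64 ± 0.78. Ankrd61, named for ankyrin repeats, had 869, 872, 1085 and 806 counts, or 278 ± 31.8 TPM, beside 244 ± 55.0 TPM for Eif2ak1. That pair shared 172 coding bases of Eif2ak1, lay close in every library (difference 0.21 ± 0.26), and turned to -1.07 when counts were not scaled by length. All exons of Ankrd61 lie within the span of Eif2ak1, with 2159 bases opposite its introns.

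In the other 9 pairs the initiation factor gene was the higher one by the mean. Eif2ak1 also shares 487 bases of its 3′ untranslated part with Aimp2, a scaffold protein of the tRNA synthetase complex, which had 87, 86, 76 and 79 counts and lay 2.75 lower (log2 difference -2.75 ± 0.07). Rev1, a translesion DNA polymerase, had 74, 73, 70 and 89 counts opposite the 3′ untranslated part of Eif5b, with 1643 shared bases and a difference of -3.22 ± 0.32. Rfc4, a clamp loader subunit, had 15, 10, 15 and 3 counts opposite the end of Eif4a2, with 194 shared bases and a difference of -4.00 ± 0.88. Snx17, a sorting nexin, had 170, 137, 139 and 141 counts opposite the start of Eif2b4, with a difference of -1.50 ± 0.22. Rassf5, an effector of the GTPase Rap1, had 106, 79, 96 and 105 counts opposite Eif2d, with 78 shared bases and a difference of -2.20 ± 0.17. In each of these 5 pairs the other-strand gene was the lower one in all 4 libraries. The initiation factor genes of these 5 pairs were the 5 highest by TPM. A high TPM of the gene itself favours a difference in this direction, so this is no separate result. In its pair with Ankrd61, Eif2ak1 was the lower one (difference 0.21).

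The last 4 pairs were closer or rested on few counts. Spg11, a lysosomal protein gene, had 199, 213, 224 and 196 counts beside 167, 165, 185 and 142 for Eif3j1, and shares 1107 bases with its 3′ untranslated part. By length they differed by -0.12 ± 0.10, and unscaled by 0.34 in the other direction. Serp1, a protein of the endoplasmic reticulum membrane, had 22, 15, 27 and 19 counts opposite the start of Eif2a and differed by -0.32 ± 0.40. D830035M03Rik had 4, 18, 12 and 61 counts opposite the start of Eif1b, whose counts stayed between 17 and 21. Replicate 4 was the highest library for that antisense gene, and the difference of -0.16 ± 1.59 changed sign with the library left out. Gm16098 had 3, 0, 1 and 1 counts opposite the start of Eif6. One more gene, n-R5s29, shares 47 bases with Eif2ak2, under the limit of 50, and had 2, 1, 3 and 0 counts.

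**Figure D3:**
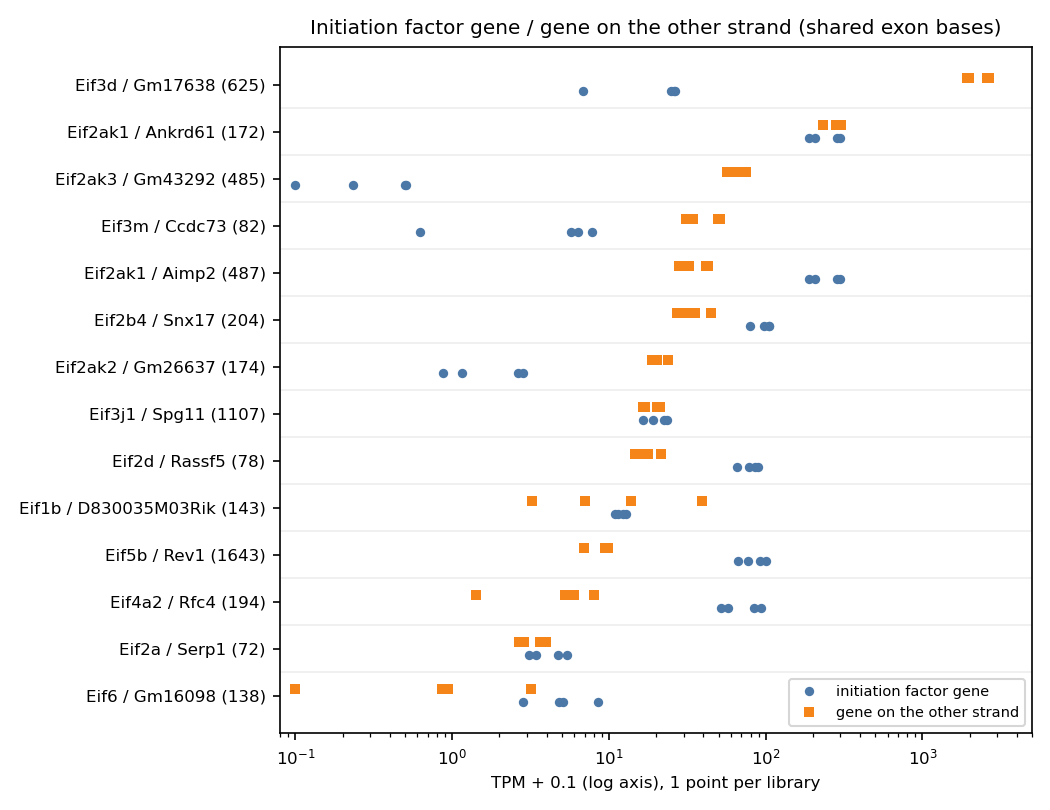
TPM + 0.1 on a log axis for each initiation factor gene (circles) and the gene on the other strand (squares), 1 point per library, with the number of shared exon bases. Gm17638 stands far to the right of Eif3d and Gm43292 of Eif2ak3, while Rev1, Rfc4, Aimp2 and Rassf5 stand to the left of their partners.

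Replicate 4 stood apart for the genes that share no exon base. Their summed counts were 2090, 2503, 2528 and 879 in replicates 1 to 4, while the sums of the 13 genes that share exon bases were 5252, 5321, 5073 and 4604. The first sum was lowest in replicate 4, although that library had more counts in all than replicates 1 and 2. Scaled by library totals, the genes sharing no exon base summed to 1158, 1356, 932 and 405 CPM, and those that share to 2911, 2882, 1871 and 2122 CPM, where replicate 3 was lowest. In bulk RNA, fewer cells of a type and less RNA per cell cannot be told apart, and they are not the only candidates. Genes with exon bases shared with an opposite gene held 92.9%, 92.2%, 94.4% and 95.9% of all counts in replicates 1 to 4. The cause was not tested. Without any filter, replicate 4 had the lowest CPM for 32 of the 42 genes, with 5 tied. Among those with a mean of at least 10 counts it was lowest for 27 of 30, where it was lowest for 65.4% of the 2465 genes of the whole annotation that share no exon base and reach that mean. Of the genes sharing exon bases at that mean, it was lowest for 7 of 12, against 24.2% of 3384 genes. Replicate 3 was lowest for 4 of those 12 and for 65.4% of those 3384.

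By size, the deviation of replicate 4 was its log2 CPM minus the mean of the other 3 libraries, taken where each of those 3 had 10 counts or more. This filter reads only the other libraries, so a gene low in one of them could not enter. Among the genes sharing no exon base, 26 of 30 (86.7%) lay more than 1 below the others in replicate 4, and the median was -2.45. The same held for 55.9% of the 2115 genes of the whole annotation that share no exon base. Among the genes sharing exon bases, 2 of 11 were more than 1 lower, Eif3d at -1.85 and Eif3m at -3.29, beside 9.52% of 3150 genes. Of the cell markers, the 7 T cell genes summed to 155, 205, 155 and 47 counts and the 6 Th2 genes to 76, 131, 107 and 56. Within the Th2 genes, Ccr4 stood at -2.57, Gata3 at -0.70 and Il4 at 0.10 in replicate 4, and Csf1r stood at -0.10. The part of library quality or cell makeup in this pattern was not tested.

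Of the 30 genes measured this way that share no exon base, 4 were not more than 1 lower. Eif3b stood at 0.29 and Eif4enif1 at 0.25 above the other libraries, and Eif1ad at -0.19 and Eif4g3 at -0.78. The span of Eif4enif1 overlaps that of Drg1 on the other strand with no shared exon base, and Drg1 had 15, 7, 6 and 1 counts. Banf1 lies on the other strand, 168 bases from the start of Eif1ad, and had 55, 62, 68 and 74 counts. For Eif3b the closest gene on the other strand lies 10058 bases away. Tmem234, with 252, 256, 302 and 262 counts, lies 20 bases from Eif3i, which stood at -3.16. Whether the distance to such a gene goes with the deviation was not tested. The lowest deviation, -5.43 for Eif3k, rests on 0 counts in replicate 4 and on the prior count of 0.5.

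**Figure D4:**
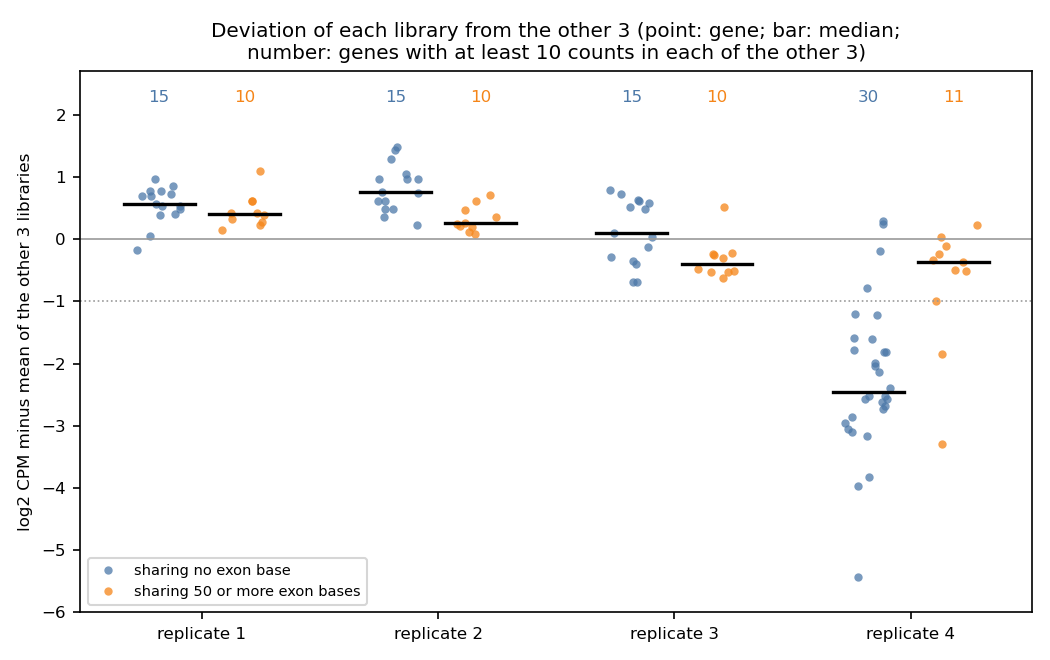
Log2 CPM of each library minus the mean of the other 3, 1 point per initiation factor gene, with medians as black bars and the number of genes above each group. In replicate 4 the genes sharing no exon base have a median of -2.45, and those sharing exon bases a median of -0.37. In replicates 1 to 3 the other 3 libraries include replicate 4, so those points are not a measure of how far each of these libraries stands apart.

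The spread between the 4 libraries was also tested gene by gene. With edgeR, 25 initiation factor genes had counts high enough to be tested, and 0 had an adjusted p under 0.05, the smallest being 0.534. The filter on counts leaves out genes that are low in replicate 4, such as Eif3k and Eif4e, and without it 8 of 52 passed, with 345 of 17203 genes in all. Over all 4190 genes tested, 0 (0%) passed after adjustment and 6.4% had an unadjusted p under 0.05. Unadjusted, 9 of the 25 did, and DESeq2 marked none of them as a dispersion outlier. Without replicate 4, edgeR again called 0 of these genes after adjustment, and 20 genes in all. These 9 were Eif2s2, Eif3a, Eif3c, Eif4a1, Eif4b, Eif4g1, Eif4g2, Eif5 and Eif5a. All 9 were among the 15 tested genes that share no exon base, and none among the 10 that do. The 6.4% over all genes was not split by sharing, so this division cannot be read as a result about the initiation factor genes.

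Genes that act with the initiation factors were counted from 5 further lists. Of 7 elongation genes, 5 were above 1 TPM and 1, the kinase gene Eef2k, was below. Eef1a1, which brings aminoacyl tRNA to the ribosome, had 827, 1014, 928 and 167 counts, or 215 ± 120 TPM. Eef2, which moves the ribosome along, had 295, 414, 388 and 87. Eef1g, a subunit of the complex that recharges Eef1a1, had 117, 121, 125 and 57. All 3 share no exon base, and all 3 were lowest in replicate 4. Of 4 genes of termination and recycling, 2 were above 1 TPM, the release factors Gspt1 with 115, 137, 121 and 62 counts and Etf1 with 65, 90, 59 and 8. Gspt1 shares 239 exon bases with the other strand and stood at -1.05 in replicate 4 against the mean of the other libraries. Etf1 shares none and stood at -3.11. The recycling factor gene Abce1 had 36, 59, 34 and 3.

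Of 9 genes binding the cap or the poly(A) tail, 6 were above 1 TPM. Ncbp2, the small subunit of the nuclear cap-binding complex, had 182, 161, 174 and 152 counts, or 52.3 ± 9.29 TPM, and Ncbp1, its large subunit, had 43, 82, 72 and 41. Ncbp2 shares no exon base, yet its deviation in replicate 4 was only -0.24. Ncbp1 shares 82 bases and stood at -0.68. Pabpc1, the cytoplasmic poly(A)-binding protein, had 192, 247, 243 and 28, with replicate 4 far below the others. Of 18 genes that control initiation, 9 were above 1 TPM, and 8 of the 18 share 50 or more exon bases with the other strand. The stress-response transcription factor gene Ddit3, which shares 68 exon bases with the other strand, had 415, 355, 403 and 320 counts, or 157 ± 30.8 TPM. Dhps, which makes the hypusine of Eif5a, had 145, 154, 130 and 186, and Atf4, whose own translation rises when eIF2 is phosphorylated, had 48, 40, 38 and 15. Of 3 genes of mitochondrial initiation, 1 was above 1 TPM, near the 32.1% over all genes. Mtif3 was that gene, with 1505 shared exon bases and 3008, 2945, 3259 and 2743 counts, or 419 ± 56.0 TPM, while Mtif2 had 10, 14, 9 and 1 and Mtfmt had 3, 4, 3 and 3.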

How the data were processed

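The 4 libraries each had 1 table of raw fragment counts per gene, which the authors made, per the file headers, with featureCounts 1.4.6-p4 over exons of GENCODE M13 (mm10), with strand setting 1, both ends aligned and no option for multi-mapping or multi-overlapping fragments. The alignments are named star2 there, and the aligner's version is not given in the sources used here. The tables also hold the exon coordinates and the summed exon length, other values deposited by the authors, from which TPM was computed. The assay is labelled as total RNA, but the title of the library protocol that the labels link to names poly(A) RNA.

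Symbols were matched by gene ID for 50376 of 50600 IDs. Exons were merged per gene and bases shared with genes on the other strand were summed. Coding bases and exon sequences came from GENCODE M21 on the same genome build. Levels were tested with limma 3.58.1 on log2(TPM + 0.1) against 1 TPM, two-sided, for genes with a count. Spread was tested with edgeR 4.0.16 (TMM factors, default filter, intercept-only quasi-likelihood fit) over all genes, with DESeq2 1.42.0 as an alternative. Both used R 4.3.3, Benjamini-Hochberg adjustment and a threshold of 0.05, and were tested on simulated counts. Deviations used log2 CPM with a prior of 0.5. Pairs were compared with an exact sign-flip test in Python 3.11.15 with scipy 1.17.1. A limit of 3 counts was taken for a count of 0, 1.11 to 1.66 CPM, for counting error only.

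The genes and lists were chosen with earlier results of these data known. All 55 genes are named, with counts per library for the 3 highest by TPM of each role, for every pair, and for the 3 highest of each related list. Others shown by library, the nearest genes on the other strand, the library with the lowest CPM, and the comparison with genes sharing no exon base were chosen after their values had been seen. As alternatives, the pseudocount, the level, the filter, the scaling and the limit of shared bases were changed, and each replicate was left out in turn.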

Additional observations from a re-analysis of the deposited data

Results flagged for a closer look

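In 3 initiation factor genes, replicate 4 lay far below the other 3 libraries by Dixon's criterion for 4 samples. Eif5 was at 6.45 CPM there and between 36.9 and 41.7 CPM in the others. Eif3d was at 8.76 CPM there and between 30.6 and 33.6 CPM in the others. Eif4b was at 17.5 CPM there and between 59.4 and 66.6 CPM in the others. Rev1, on the other strand from Eif5b, was low in replicate 3 instead, at 25.8 CPM against 39.5 to 41.0 CPM, where its counts were alike and replicate 3 had the largest total. The criterion was run on 55 series of 4 values and picked out 4, and chance alone picks out about 1 in 20.

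Eif2s3y, the copy of the eIF2 gamma subunit gene on chromosome Y that the rule leaves out, had 10 counts in replicate 3 and 0 counts in each of the other 3 libraries.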

How the results depend on the processing

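The directions and calls of the 35 genes above 1 TPM held with TMM factors. Against 4 TPM in place of 1 TPM, 22 initiation factor genes were above and 12 below (3579 and 10768 of all genes), and the estimates turned negative for Eif3m (-0.17), Eif2a (-0.013), Eif4g3 (-0.39), Eif2b1 (-0.65) and Eif4h (-0.0068). The count of 2 genes below 1 TPM became 3 with a pseudocount of 0.5 (Eif5a2 added, adjusted p = 0.027, limma), 1 with a pseudocount of 0.01 or with CPM, 0 with a mean count of at least 10, and between 0 and 2 with a replicate left out. For all genes below 1 TPM the count was 13 with a mean count of at least 10 and between 2410 and 2928 with a replicate left out. Without replicate 4, 42 initiation factor genes were above 1 TPM. For the spread between libraries, dropping the expression filter gave 8 initiation factor genes and 345 genes in all, DESeq2 gave 27 genes, and leaving out a replicate gave between 0 and 20. With at least 200 shared bases, 6 initiation factor genes had a gene on the other strand, which was higher in 2 pairs. Unscaled counts turned Spg11 minus Eif3j1 to 0.34 and Ankrd61 minus Eif2ak1 to -1.07, by the scaling's own construction. D830035M03Rik minus Eif1b lay between -0.84 without replicate 4 and 0.43 without replicate 1, and was 0.011 without replicate 3. The share of genes sharing exon bases that were lower in replicate 4 lay between 18.2% and 33.3% with another replicate left out, and TMM factors gave 80.0% for those sharing none. The causes were not tested unless stated. No comparison between groups was possible because all libraries belong to 1 group.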

Other observations

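Some initiation factor genes also share exon bases with genes of their own strand, where by the counting tool's default a fragment that touches both is given to neither. Eif4ebp3, with 0 counts, shares 501 of its 744 exon bases with Ankhd1, which had 61, 43, 61 and 34 counts in replicates 1 to 4. Eif4e3, with 2 counts in all, shares 373 bases with Gm20696, which had 1, 1, 3 and 0. Eif4a2 shares up to 178 bases with small nucleolar and micro RNA genes inside it, Eif4a1 up to 144 and Eif4g2 150. Those small RNA genes had 0 counts in every library except Gm24616, with 1 count in replicate 2 and 1 in replicate 3. Of the 7 pseudogene symbols that the rule leaves out, Eif4a-ps4 had 1 count in replicate 3, and the others had 0 counts.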
